A study of Mus musculus with 16 samples.

Results

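ATP-binding cassette (ABC) transporters are membrane proteins that use ATP to move drugs, bile components, sterols, phospholipids, peptides or ions across a membrane. The ABC genes of the mouse colon were taken here as every feature of the array whose gene symbol is Abc, a letter from a to g, a number and at most 1 further letter. This pattern matched 89 features of 48 symbols. The rule kept features with a value in each of the 8 groups and averaged the features of a symbol, which left 45 genes with 82 features among the 25892 genes and unnamed features tested. Abca4, Abcb5 and Abcc10 had no such feature and were not kept. By the roles their products are known for, 8 of the 45 genes were drug efflux pumps, 19 were lipid transporters and 18 belonged to neither class. The pattern and the value filter used no difference between groups.

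Drug efflux pumps of the gut face either the lumen, where P-glycoprotein (Abcb1a and Abcb1b in mice), Abcg2 and Abcc2 return foreign compounds to the gut contents, or the blood side, where Abcc1 and Abcc3 act. Lipid transporters of the family load cholesterol onto lipoproteins (Abca1, Abcg1), return plant sterols and cholesterol to the lumen (the Abcg5 and Abcg8 heterodimer), secrete phosphatidylcholine (Abcb4) and bring fatty acids into peroxisomes (Abcd2 and Abcd3). Several of these genes are known targets of nuclear receptors for xenobiotics, bile acids, oxysterols and fatty acids.

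RNA came from the colon of male mice of 2 genotypes, C57BL/6J and Il10-/- (B6.129P2-IL10<tm1Cgn>/J). The latter cannot make interleukin 10, a cytokine that restrains inflammation. All mice of both genotypes had received Enterococcus faecalis, E. faecium and complex intestinal flora by gavage, and ate 1 of 4 diets for 6 weeks: CO (AIN-76A), OA (fat-free AIN-76A with 1% corn oil and 3.7% oleic acid), EPA (the same base with 3.7% eicosapentaenoic acid) or AA (with 3.7% arachidonic acid). They were sampled after 77 days of age per the protocol, although an age field of the labels gives 5 weeks. Each of the 16 arrays held an equimolar pool of RNA from 2 to 3 mice (Cy3) against a reference RNA of Swiss mouse small intestine, colon, kidney, liver and fetuses (Cy5), with 2 pools in each of the 8 groups. The knockout is present from conception in every cell. Whether both pools of a group held separate animals is not labelled, and the p-values here therefore reflect array-to-array spread, which may be technical. In whole colon RNA, fewer cells of a type and less RNA per cell cannot be told apart. Levels are log2 ratios to the reference, with base 2 assumed. Differences are given on that log2 scale, each ± its fitted standard error (SE), and a gene is called at a limma adjusted p under 0.05.

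A few facts of the arrays touch the values below. The array titled Il10-/- OA pool 1 has a source name that says EPA, and the title was used. C57BL/6J EPA 1 and C57BL/6J AA 1 stood apart in genes known from small intestinal absorptive cells: the lipoprotein gene Apoa1 was at 0.00 and -0.15 there and at -4.13 to -2.52 on the other 14 arrays. Every array had a single value carried by 326 to 985 features, written "tied" here, and among the ABC genes only Abcd3 had a feature at it (on 12 arrays). The Il10 probe read higher in Il10-/- mice, at 0.58 ± 0.13 against -0.17 ± 0.08 (SD, n = 8 arrays each). Its place relative to the deleted part of the gene is not known, so it does not check the genotype.

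The promoters of Abcb1a, Abcb1b, Abcb4 and Abcb6 are shown because these 4 members were called on 3 of the 4 diets, as described further on. Each sequence is the 150 bases before the start given in RefSeq's promoter table (build GRCm38.p6), written 5′ to 3′ on the gene's strand, and capitals mark matches on either strand to 4 motifs: GGGCGG, known as a GC box; CCAAT, the letters of a CCAAT box; TATAAA, those of a TATA box; and AGGTCA, a core motif of nuclear receptors.
Abcb1a, chr5:8566941-8567090, plus strand: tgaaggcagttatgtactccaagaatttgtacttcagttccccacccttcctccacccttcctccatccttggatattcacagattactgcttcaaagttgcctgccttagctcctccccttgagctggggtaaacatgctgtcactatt
Abcb1b, chr5:8797997-8798146, plus strand: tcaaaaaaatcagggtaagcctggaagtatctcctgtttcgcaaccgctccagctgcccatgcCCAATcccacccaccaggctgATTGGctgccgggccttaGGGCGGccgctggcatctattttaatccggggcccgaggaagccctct
Abcb4, chr5:8893571-8893720, plus strand: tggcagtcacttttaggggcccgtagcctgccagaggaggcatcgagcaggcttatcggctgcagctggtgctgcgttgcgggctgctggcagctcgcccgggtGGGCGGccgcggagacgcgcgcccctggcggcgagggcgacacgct
Abcb6, chr1:75180393-75180542, minus strand: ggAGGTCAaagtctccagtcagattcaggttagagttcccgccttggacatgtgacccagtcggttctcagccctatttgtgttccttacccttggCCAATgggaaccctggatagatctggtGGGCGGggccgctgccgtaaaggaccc
No listed motif occurred in the Abcb1a window. GGGCGG began at position -48 from the start of Abcb1b, -46 from that of Abcb4 and -27 from that of Abcb6, and no match overlapped another. The Abcb4 start of that table lies 107 bases inside the outermost start annotated for the gene, so most of its window is within the annotated gene, while the other 3 starts coincide with the outermost ones. RefSeq promoters were found for 35 of the 45 members (41 promoters). GGGCGG was present in 28.6% of all 32851 promoters of this length and in 18 of the members' 41, CCAAT in 24.5% and 9, TATAAA in 7.6% and 3, and AGGTCA in 8.6% and 4. Abcb1a, Abcb1b and Abcb4 are neighbouring genes on chromosome 5.

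Averaged over the 4 diets, 5 of 8 drug efflux pumps fell in the Il10-/- colon (Abcb1a, Abcg2, Abcb1b, Abcc5 and Abcc3) and 0 rose, with a median difference of -0.41 against -0.01 over all features tested. Of all 45 members, 12 were called (26.7%), 11 lower and 1 higher, where 17.3% of the 25892 features were called, 8.12% lower and 9.14% higher (28.2% at an unadjusted p under 0.05). The plot of genotype differences for all members shows the same split, with most lipid transporters and most other ABC genes close to 0.

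**Figure D1:**
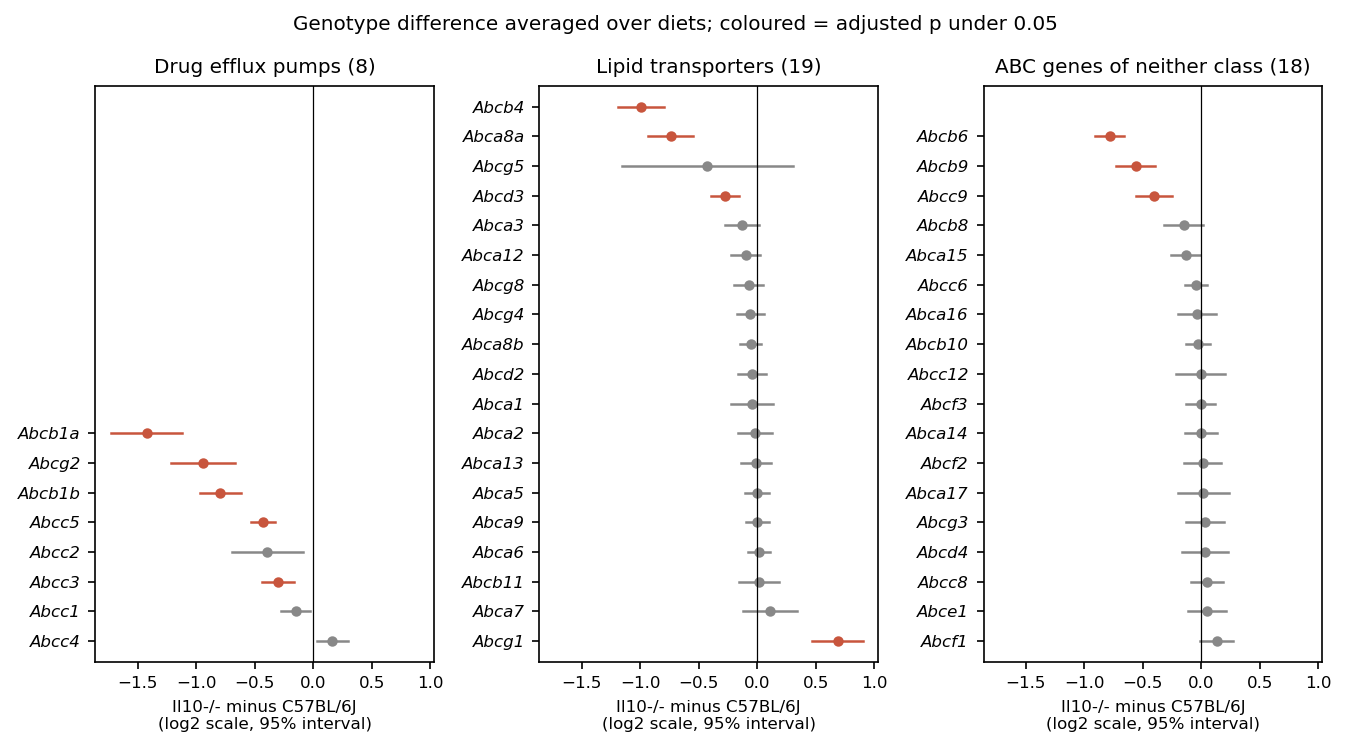
Il10-/- minus C57BL/6J difference averaged over the 4 diets (log2 scale, x axis) for each of the 45 ABC genes (y axis), in 3 classes. Points are the estimates of the fit, bars are 95% intervals, and coloured genes have an adjusted p under 0.05: 5 drug efflux pumps and 6 other members lie below 0, and Abcg1 alone lies above it.

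Abcb1a, one of the mouse genes for P-glycoprotein, changed most among the pumps when the features of a gene were averaged. Its level was 1.93 at the lowest, 2.48 at the median and 2.69 at the highest in C57BL/6J mice, and 0.45, 0.78 and 2.19 in Il10-/- mice (n = 8 arrays each). The genotypes overlapped only through Il10-/- EPA 1, at 2.19. The difference was -1.42 ± 0.14, 2.68-fold lower (adjusted p = 2.17e-05), and Il10-/- was lower on 4 of 4 diets. This gene had a single feature, and 1 feature of Abcb1b differed by as much (-1.44).

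Abcb1b, the other P-glycoprotein gene of mice, ranged from 0.80 to 1.15 (median 1.00) in C57BL/6J and from 0.01 to 0.79 (median 0.15) in Il10-/- mice. On this average of 3 features all 8 Il10-/- arrays lay below all 8 C57BL/6J arrays. The nearest were Il10-/- EPA 1 at 0.79 and C57BL/6J EPA 2 at 0.80. The difference was -0.79 ± 0.08 (adjusted p = 2.76e-05). Its 3 features did not act alike: they differed by -1.44 ± 0.11, -1.12 ± 0.11 and 0.18 ± 0.06, the last with an adjusted p of 0.0731. The average of the gene therefore understates the change of the first pair and does not describe the last. Singly, only the feature at -1.44 had no overlap of the genotypes. The feature at -1.12 had Il10-/- EPA 1 at 0.98 and C57BL/6J EPA 2 at 0.86.

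Abcg2, which exports sulfate conjugates, urate and dietary toxins at the luminal face, ranged from -0.66 to 0.21 (median -0.07) in C57BL/6J and from -1.84 to -0.74 (median -1.02) in Il10-/- mice. On this average of 2 features the genotypes did not overlap, and the difference was -0.94 ± 0.12, 1.92-fold lower (adjusted p = 0.000215). Its 2 features differed by -0.96 ± 0.12 and -0.92 ± 0.13, and both were called. The feature at -0.92 overlapped singly, with C57BL/6J CO 1 at -0.77 and Il10-/- AA 2 at -0.74.

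Abcc5, an exporter of cyclic nucleotides, ranged from -0.22 to 0.09 (median -0.09) in C57BL/6J and from -0.68 to -0.40 (median -0.50) in Il10-/- mice. There was again no overlap on the average of its 3 features. The difference was -0.43 ± 0.05 (adjusted p = 5e-05), and all 3 features fell. Singly, the feature at -0.31 had C57BL/6J OA 1 at -0.71 and Il10-/- AA 1 at -0.49. The feature at -0.38 had Il10-/- EPA 1 at 0.00 and C57BL/6J EPA 1 at -0.06, so both overlapped. Abcc3, which passes glucuronides and bile salts to the blood side, ranged from 0.62 to 1.19 (median 0.96) in C57BL/6J and from 0.44 to 0.97 (median 0.57) in Il10-/- mice. It fell by 0.30 ± 0.06 (adjusted p = 0.00485) with overlap. Its features differed by -0.50 ± 0.09 and -0.11 ± 0.05, and only the former was called (adjusted p = 0.00165 and 0.219).

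The other 3 pumps were not called. Abcc2, the luminal exporter of conjugates, differed by -0.39 ± 0.14 (adjusted p = 0.0809), and by -0.19 (adjusted p = 0.248) without C57BL/6J EPA 1 and AA 1. It was called at -0.51 without C57BL/6J AA 2, -0.47 without C57BL/6J CO 1 and -0.47 without C57BL/6J EPA 2. Abcc1, a blood-side exporter of glutathione conjugates, differed by -0.15 ± 0.06 (adjusted p = 0.0912), and its 3 features all lay below 0. Without C57BL/6J EPA 1 it was called, at -0.19 (adjusted p = 0.0225). Abcc4, an exporter of cyclic nucleotides and prostaglandins, lay higher by 0.16 ± 0.06 (95% interval 0.03 to 0.30, adjusted p = 0.0900), and one of its features was higher by 0.31 ± 0.07 (adjusted p = 0.00987) while the other differed by 0.02 ± 0.10. The averaged Abcc4 value was called without C57BL/6J CO 1 (0.20) and without Il10-/- EPA 1 (0.21). The interval of Abcc2 was wide, from -0.70 to -0.08.

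**Figure D2:**
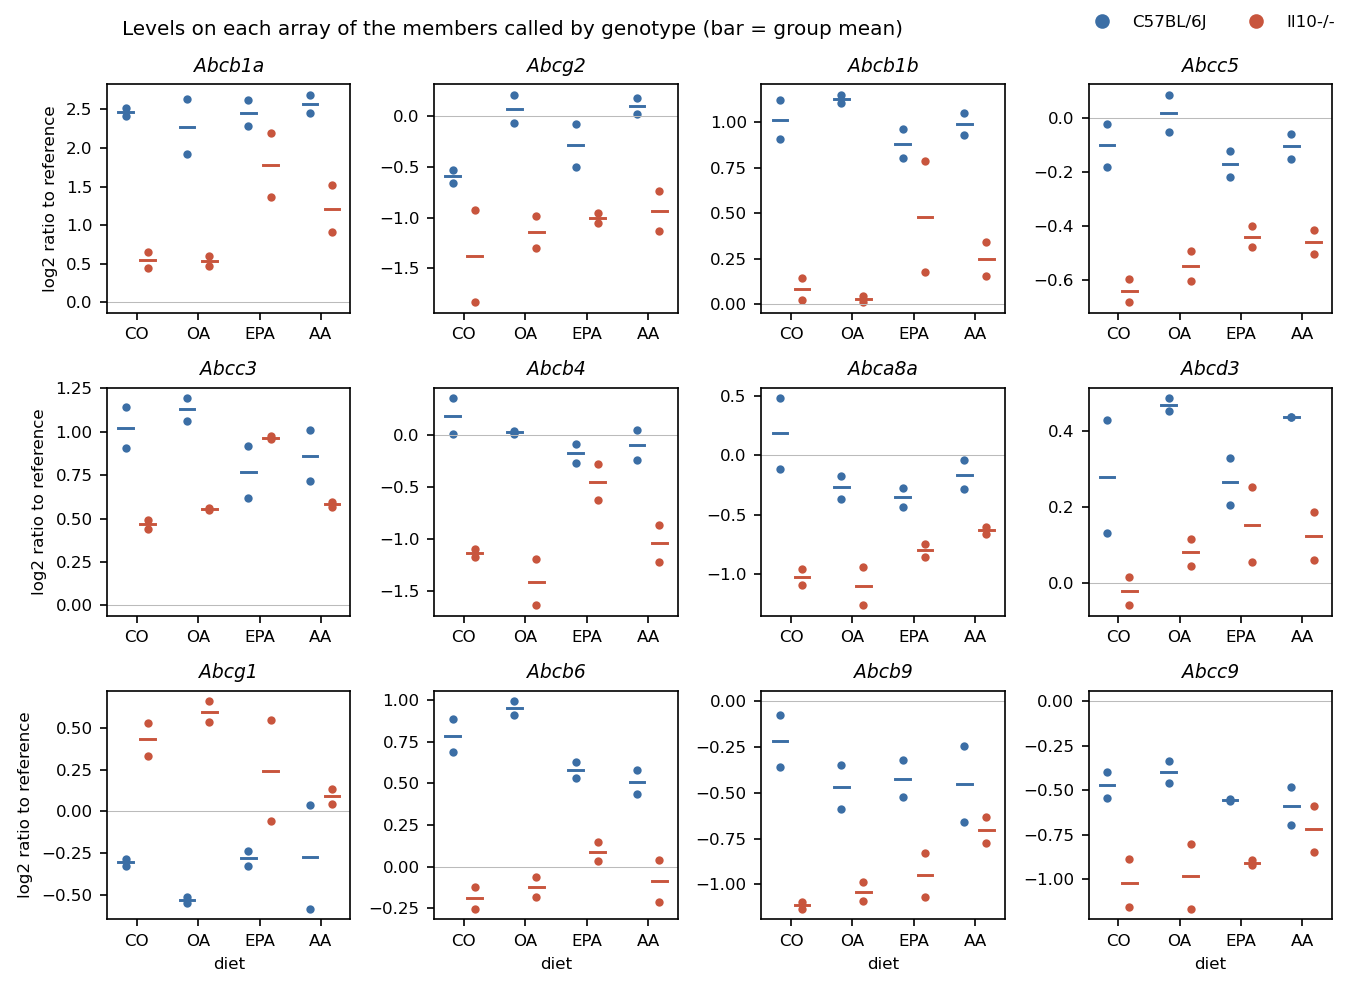
Log2 ratio to the reference RNA (y axis) on each array of the 12 ABC genes called by genotype, by diet (x axis) and genotype (colour). Points are arrays and bars are group means (2 arrays): Il10-/- arrays lie below C57BL/6J arrays for 11 genes on most diets and above them for Abcg1, and the Abcb1a levels of Il10-/- mice on EPA (2.19 and 1.36) lie above those on OA (0.59 and 0.47).

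Among the 19 lipid transporters 3 fell, 1 rose and 15 were not called. The share called, 21.1%, was near the 17.3% of all features, and their median difference was -0.05. The uncalled genes lay between -0.43 and 0.11. The highest of these, Abca7, mixes 1 and 2 features across arrays, and its features singly differed by -0.04 ± 0.07 and -0.01 ± 0.07. By role, 1 of 5 sterol exporters, 1 of 10 ABCA lipid carriers, 1 of 2 bile lipid transporters and 1 of 2 peroxisomal importers were called.

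Abcg1, which moves cholesterol to high density lipoprotein and is known from macrophages, was the member that rose. It ranged from -0.58 to 0.04 (median -0.33) in C57BL/6J and from -0.06 to 0.66 (median 0.43) in Il10-/- mice, with an overlap between C57BL/6J AA 1 at 0.04 and Il10-/- EPA 1 at -0.06. The difference was 0.69 ± 0.10, 1.61-fold higher (adjusted p = 0.000399), and Il10-/- was higher on 4 of 4 diets. Macrophage and monocyte markers moved the same way: of 13 with no tied value, 10 rose and 1 fell, with a median of 0.77. The mean of all 14 measured markers, with the tied Lyz2 included, was 0.61 to 0.93 on Il10-/- arrays against -0.11 to 0.34 on C57BL/6J arrays. Their part in the Abcg1 difference was not tested.

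Abca1, which loads cholesterol and phospholipid onto apolipoprotein A-I, did not change detectably, at -0.05 ± 0.08 (95% interval -0.22 to 0.13, adjusted p = 0.773), and this sign turned under quantile normalization (0.06) and without both arrays that stood apart (0.03). Abcg5 and Abcg8, which lie head to head on chromosome 17, differed by -0.43 ± 0.34 and -0.07 ± 0.06 (adjusted p = 0.459 and 0.443). Abcg5 stood at -0.15 on C57BL/6J EPA 1 and -0.18 on C57BL/6J AA 1, and at -3.14 to -1.38 (median -2.44) on the other 14 arrays. Without both arrays its genotype difference was 0.07 (adjusted p = 0.880).

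**Figure D3:**
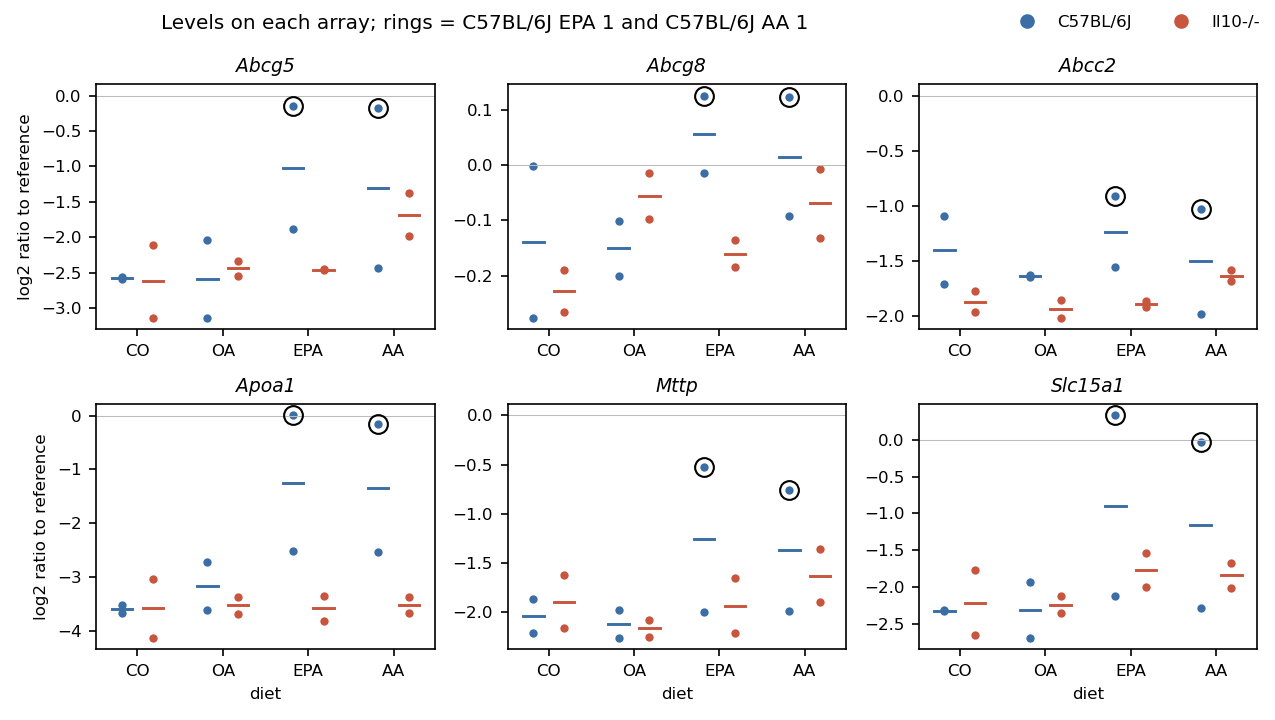
Log2 ratio to the reference RNA (y axis) on each array of 3 ABC genes (Abcg5, Abcg8, Abcc2) and of 3 genes known from small intestinal absorptive cells (Apoa1, Mttp, Slc15a1), by diet (x axis) and genotype (colour), with group means as bars. Rings mark C57BL/6J EPA 1 and AA 1, where Abcg5 (-0.15 and -0.18) and Apoa1 (0.00 and -0.15) lie above all other arrays.

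The other genes in that plot were also highest on the same pair of arrays. Mttp, which assembles lipoproteins, was at -0.53 and -0.75 there and at most -1.36 elsewhere, and the peptide carrier Slc15a1 at 0.33 and -0.03 against at most -1.54. Abcg8 was at 0.13 and 0.12 against at most 0.00, although 1 of its 2 features was highest on C57BL/6J CO 2, at 0.19. Abcc2 was at -0.91 and -1.03 against -1.09 on C57BL/6J CO 2, the next highest array. Abcb1a and Abcg2 did not stand apart on the pair. The part of small intestinal RNA in these levels was not tested.

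Abcb4, the phosphatidylcholine transporter of bile, had 2 features that disagreed. The feature with a value on all 16 arrays had C57BL/6J levels of 0.83 and 0.35 for CO, 0.78 and 0.91 for OA, 0.57 and 0.16 for EPA, and 0.71 and 0.52 for AA. Its Il10-/- levels were -1.30 and -1.87 for CO, -1.51 and -1.64 for OA, 0.15 and -0.63 for EPA, and -1.22 and -0.71 for AA. The genotypes did not overlap, and this feature fell by 1.69 ± 0.13 (adjusted p = 2.29e-06). The other feature had values on 12 arrays, between -1.02 and -0.47, and differed by -0.04 ± 0.10 (adjusted p = 0.867). The average of both, -0.99 ± 0.09 (adjusted p = 1.18e-05), mixes 1 and 2 features across arrays. Probe sequences were not among the values used here, so cross-hybridization between Abcb4, Abcb1a and Abcb1b, whose coding sequences are alike, was not tested. Of the other genes beside these 3 on chromosome 5, Rundc3b, which overlaps Abcb1a, fell by 0.46 ± 0.09 (adjusted p = 0.00312), and Dbf4, Slc25a40, Crot, Tmem243 and Dmtf1 were not called. Abcb11, the bile salt export pump, differed by 0.02 ± 0.08 (adjusted p = 0.915).

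**Figure D4:**
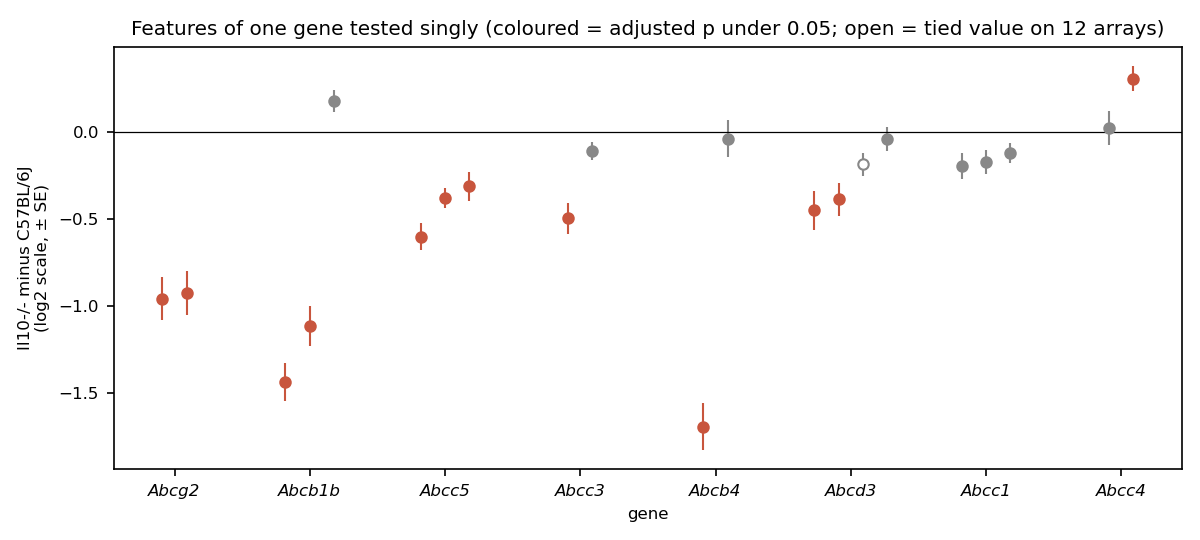
Il10-/- minus C57BL/6J difference averaged over diets (log2 scale, y axis) of each feature, tested singly, for the called members and drug efflux pumps with more than 1 feature (x axis). Bars are SE, coloured features have an adjusted p under 0.05, and the open point is the Abcd3 feature at the tied value on 12 arrays: features agree for Abcg2, Abcc5 and Abcc1 and differ for Abcb1b, Abcb4, Abcc3, Abcc4 and Abcd3.

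Abca8a, of the ABCA lipid carriers, ranged from -0.43 to 0.48 (median -0.22) in C57BL/6J and from -1.27 to -0.60 (median -0.90) in Il10-/- mice without overlap, and fell by 0.74 ± 0.09, 1.67-fold (adjusted p = 8.78e-05). Its neighbours of the same group on chromosome 11 were not called: Abca8b differed by -0.06 ± 0.04, Abca9 by 0.00 ± 0.05, Abca6 by 0.01 ± 0.04 and Abca5 by 0.00 ± 0.05. Abcd3, the peroxisomal importer of fatty acyl-CoA, fell by 0.28 ± 0.05 (adjusted p = 0.00360), from a range of 0.13 to 0.49 (median 0.43) to a range of -0.06 to 0.25 (median 0.05). Of its 4 features, the pair at -0.45 ± 0.11 and -0.39 ± 0.09 were called, and the tied one and the last, at -0.18 ± 0.07 and -0.04 ± 0.07, were not.

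The 18 genes of neither class held 3 called members, all lower. This share, 16.7%, was near the 17.3% of all features, and their median difference was 0.00. Abcb6, a porphyrin transporter of organelle membranes, ranged from 0.44 to 0.99 (median 0.66) in C57BL/6J and from -0.25 to 0.15 (median -0.09) in Il10-/- mice. The genotypes did not overlap, and its difference of -0.78 ± 0.06 had the lowest adjusted p of the 45 members (1.84e-06). Abcb9, a lysosomal peptide transporter, fell by 0.56 ± 0.08 (adjusted p = 0.000256), from a median of -0.35 to a median of -1.03.

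Abcc9, a subunit of ATP-sensitive potassium channels known from muscle and vessels, fell by 0.41 ± 0.07 (adjusted p = 0.00159), from a range of -0.70 to -0.33 to a range of -1.17 to -0.59. Smooth muscle markers fell beside it, 4 of the 5 with no tied value (median -0.62), as did 4 of 8 endothelial markers (median -0.23), and their part in the Abcc9 difference was not tested. The 4 ABC proteins with no membrane domain (Abce1, Abcf1, Abcf2 and Abcf3), which act on ribosomes rather than membranes, lay between 0.00 and 0.13 and none was called. The 7 members with no assigned role (Abca14 to Abca17, Abcc6, Abcc12 and Abcg3) lay between -0.13 and 0.03.

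By the average of a gene's features, every Il10-/- array lay below every C57BL/6J array in 6 of the 45 members (Abcb1b, Abcg2, Abcc5, Abcb4, Abca8a and Abcb6). In 0 members every Il10-/- array lay above. Over all features this held for 1.80% and 2.83%, 4.63% in all. Of the ABC proteins whose symbols lie outside the pattern, the peptide transporters of antigen presentation rose, Tap1 by 1.72 ± 0.11 and Tap2 by 0.78 ± 0.07, and the chloride channel Cftr differed by 0.07 ± 0.05.

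Genes that work beside the pumps were measured as well, with 8.12% of all features called lower and 9.14% higher. Of 13 measured genes for uptake and blood-side exit of drugs and bile acids 9 fell and 1 rose, with a median of -0.39. The carnitine and cation carrier Slc22a4 fell by 1.10 ± 0.12, the bile acid exit subunit Slc51a by 1.00 ± 0.22 and the anion carrier Slco2b1 by 0.58 ± 0.08, while Slco4a1 rose by 0.34 ± 0.08. Among 16 nuclear receptors and related factors 4 fell and 1 rose: Ppara, the receptor for fatty acids, by 1.15 ± 0.08, Ppargc1a by 0.35 ± 0.07, Pparg by 0.26 ± 0.06 and Vdr by 0.23 ± 0.07, and the bile acid receptor Nr1h4 rose by 0.34 ± 0.08. The xenobiotic receptor Nr1i2, a known regulator of P-glycoprotein, differed by 0.01 ± 0.05 (adjusted p = 0.941). Of 17 genes of sterol and lipoprotein handling 2 fell, Apob and Apoa4, and 0 rose. Apob was at -0.25 on C57BL/6J EPA 1 and 0.06 on C57BL/6J AA 1, and at most -0.71 on the other 14 arrays. Apoa4 was at -1.04 on C57BL/6J AA 1 and at most -2.10 elsewhere. The part of these arrays in the falls of Apob and Apoa4 was not tested.

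Markers of cell types moved with the genotype as well. Of 15 absorptive colonocyte markers, 8 had no tied value, and 4 of these fell, with a median of -0.69: Hao2 differed by -2.27 ± 0.14, Car2 by -1.33 ± 0.14, Slc20a1 by -0.74 ± 0.07 and Slc26a3 by -0.65 ± 0.14. The mean of all 15 colonocyte markers, with the 7 tied ones included, was -0.66 to 0.33 on Il10-/- arrays and 0.26 to 0.44 on C57BL/6J arrays. Of 10 pan-epithelial markers 8 were tied on some array, Epcam, Cdh1 and Vil1 among them, so epithelial content could be read from only 2, which were not called. Adipocyte markers fell (7 of 8 with no tied value, median -1.06), and neutrophil (7 of 12), T cell (6 of 9) and B and plasma cell markers (5 of 11) rose. Of 5 fibroblast markers with no tied value 1 rose and 2 fell (median 0.04), 2 of 6 neuron and glia markers fell (median -0.12), and 6 of 7 goblet cell markers were tied, with 0 called. The part of these cells in the differences of the ABC genes was not tested.

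On single diets, 10 members were called on CO and 10 on OA, 9 lower and 1 higher on each. Of all features 8.57% were called on CO (3.48% lower, 5.09% higher, 23.7% at an unadjusted p under 0.05) and 5.06% on OA (2.13% lower, 2.92% higher). The calls on CO and OA shared 9 genes, with Abcb9 called on CO and Abcg2 on OA in addition. On AA 4 members were called, Abcb1a, Abcb1b, Abcb4 and Abcb6, all lower, against 1.32% of all features (0.421% lower, 0.896% higher). These calls on AA ended in a fit without C57BL/6J AA 1, without C57BL/6J AA 2 or without Il10-/- AA 1, each of which left 0 called, and 2 (Abcb4 and Abcb6) were left without Il10-/- AA 2, Il10-/- OA 1 or Il10-/- OA 2. Without Il10-/- CO 1 or CO 2 these 2 and Abcg2 were called, and Abcb1b alone was lost without C57BL/6J EPA 1, EPA 2, OA 1 or OA 2. On EPA 0 members were called with limma, against 1.63% of all features, and 11 had an unadjusted p under 0.05 (24.4%) against 12.0% of all features.

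Without C57BL/6J OA 2 the count on OA was 5, and without Il10-/- OA 2 it was 6. The count on CO was 6 with array weights and 2 in a fit of only the groups compared. With Il10-/- OA 1 counted as EPA, as its source name says, 6 members were called on OA and 1 on AA (Abcb6). Each diet's value rests on 2 arrays a genotype, and the 4 diets together make up the average given above, so they are not further evidence of it.

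**Figure D5:**
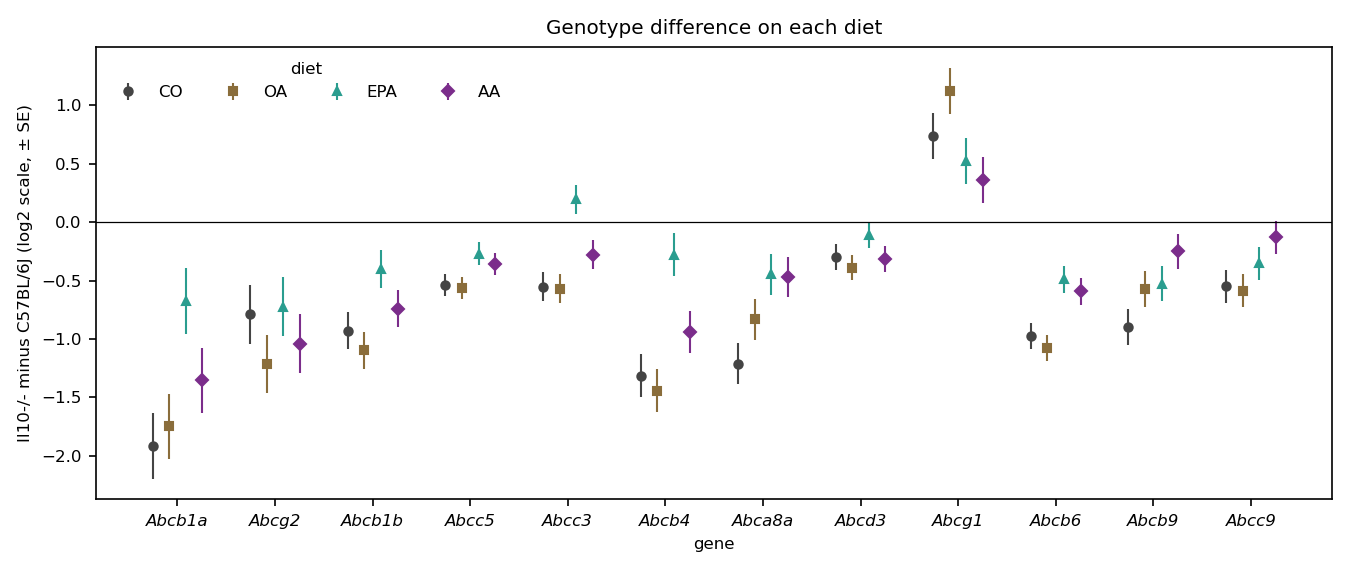
Il10-/- minus C57BL/6J difference (log2 scale, y axis) on each of the 4 diets (symbol and colour) for the 12 ABC genes called by genotype averaged over diets (x axis). Bars are SE: 9 of the 12 genes have their smallest difference on EPA, some by a small margin, a count not made over all features. Abcc3 is the only gene on the other side of 0 there, at 0.20, a value that leans on C57BL/6J EPA 1.

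The genotype difference had its smallest size on EPA for 9 of the 12 called members and on AA for the other 3 (Abcb9, Abcc9 and Abcg1). This count was not made over all features, of which 8.57% were called on CO, 5.06% on OA, 1.63% on EPA and 1.32% on AA. Some of the 9 had close sizes on another diet. Abca8a differed by -0.448 on EPA and -0.470 on AA, and a feature of Abcg2 by -0.781 on EPA and -0.705 on CO. The median size over the 12 was 0.84 on CO, 0.95 on OA, 0.42 on EPA and 0.42 on AA. Abcb1a differed by -1.91 ± 0.28 on CO, -1.75 ± 0.28 on OA, -0.68 ± 0.28 on EPA and -1.35 ± 0.28 on AA. Abcc3 differed by -0.55 ± 0.12, -0.57 ± 0.12, 0.20 ± 0.12 and -0.28 ± 0.12 in the same order. Its value on EPA leans on C57BL/6J EPA 1, which read 0.62 where C57BL/6J EPA 2 read 0.92.

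The test that the genotype difference differs among diets called 0 members and 0.00% of all features. With limma, 7 of 45 members had an unadjusted p under 0.05 (15.6%) against 6.67% of all features. From the lowest p up, these were Abcc3, Abcb4, Abcb6, Abca16, Abcc8, Abca8a and Abcb1a. The lowest adjusted p was 0.453, so no dependence of the genotype difference on diet was established for a member. Abca16 had values on 13 arrays, with 1 array each in Il10-/- AA, Il10-/- EPA and C57BL/6J OA. In Abcb4 and Abcc8, 1 of 2 features had values on only 12 and 13 arrays. The 2 features of Abcc3, tested singly, had limma unadjusted p of 0.000463 and 0.194.

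Within the Il10-/- genotype, EPA against OA called 0 members and 0.00% of all features. With limma, 6 members had an unadjusted p under 0.05 (13.3%, against 4.27% of all features), among them 3 drug efflux pumps. Abcb1a read 2.19 and 1.36 on EPA and 0.59 and 0.47 on OA, with both EPA arrays above both OA arrays. The difference was 1.24 ± 0.28 (limma unadjusted p = 0.000805, adjusted p = 0.659), and 0.92 with the array of conflicting labels counted as EPA. Abcb4 differed by 0.96 ± 0.18 (adjusted p = 0.428), by 1.34 ± 0.27 in its feature with 16 values and by 0.17 ± 0.24 in the other.

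Abcc3 read 0.96 and 0.97 on EPA and 0.56 and 0.55 on OA in Il10-/- mice, 0.41 ± 0.12 higher on EPA (adjusted p = 0.894). Its features singly differed by 0.69 ± 0.18 and 0.12 ± 0.11. In C57BL/6J mice Abcc3 read 0.62 and 0.92 on EPA and 1.19 and 1.06 on OA, a difference of -0.36 ± 0.12 (adjusted p = 0.807). Abcb1b read 0.79 and 0.18 on EPA and 0.05 and 0.01 on OA in Il10-/- mice, 0.45 ± 0.16 higher, and this value was 0.15 without Il10-/- EPA 1. Its features singly differed by 0.70 ± 0.22, 0.62 ± 0.23 and 0.04 ± 0.12 between EPA and OA. The comparisons of EPA with OA and of the genotypes on each diet share Il10-/- arrays, so the values are set side by side and their likeness is no result.

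AA against OA in Il10-/- mice called 0 members, with 8 of 45 at an unadjusted p under 0.05 with limma (17.8%, against 7.15% of all features) and 0.00386% of all features called. Abcb1a was higher on AA by 0.69 ± 0.28 (adjusted p = 0.674), Abca8a by 0.47 ± 0.17 and Abcg1 differed by -0.51 ± 0.20. EPA against AA and OA against CO called 0 members in Il10-/- mice as well, with 4 and 0 members at an unadjusted p under 0.05 with limma, against 3.39% and 1.5% of all features.

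In C57BL/6J mice no diet contrast called a member with limma (0 of 45). For EPA against OA, 4 members had an unadjusted p under 0.05, where 5.94% of all features did. There were 2 such members between AA and OA (3.34% of features), 1 between EPA and AA (3.09%) and 5 between OA and CO (11.2%), where 0.0154% of all features were called, all higher on OA. Without C57BL/6J CO 1, Abca14, Abca8a and Abcc8 were called between OA and CO. Abcg2 read -0.66 and -0.53 on CO and -0.06 and 0.21 on OA, 0.67 ± 0.25 higher on OA (adjusted p = 0.339). Abca5, of the ABCA carriers, read -0.17 and -0.02 on CO and -0.36 and -0.34 on OA, a difference of -0.25 ± 0.09 (adjusted p = 0.339). Abcb6 read 0.53 and 0.63 on EPA and 0.91 and 0.99 on OA, a difference of -0.37 ± 0.11 (adjusted p = 0.794), and Abca1 was 0.45 ± 0.16 higher on EPA (adjusted p = 0.807). Abcg5 differed by 1.57 ± 0.67 between EPA and OA, a value that rests on C57BL/6J EPA 1. Over the 4 diets, 4 members in each genotype had an unadjusted p under 0.05 with limma (8.9%) against 4.85% of all features in Il10-/- and 8.04% in C57BL/6J mice, and 0 were called.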

How the data were processed

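Colon RNA pools were hybridized to 16 Agilent 2-colour arrays. The authors deposited log2 ratios per feature. The submitters' processing notes list limma without version or role. How background was corrected, how arrays were normalized and why values are missing: not given in the sources used here. The logarithm was assumed to be base 2, as limma writes it. The ratio was read as sample over reference from 10 genes of reference tissues, with a median of -3.37 to -2.30, below 0 on all 16 arrays. No brightness was used, so dim and saturated spots were not identified. Precision is limited by the array number. An array had values for 37005 to 40827 features and a median of -0.019 to -0.001. No dye swap is named.

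Symbols came from the platform annotation (32042 features with 1 symbol, 47 with several and not used, 31906 matched by gene ID and 0 symbols changed). Features with a value in each group (37252 of 44290) were kept and averaged by symbol, with equal weight. limma 3.58.1 in R 4.3.3 fitted 8 group means (lmFit, contrasts.fit, eBayes; 8 residual and 4.07 prior degrees of freedom), with Benjamini-Hochberg adjustment over 25892 tests per contrast and a threshold of 0.05. Tables used Python 3.11.15, numpy 2.4.6, pandas 2.3.3 and matplotlib 3.10.9. The fit was tested on simulated data.

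Members and lists were chosen with earlier results of these data known. Array values are given for members called by genotype averaged over diets and for drug and lipid members with an unadjusted p under 0.05 for diet in a genotype. Other genes are named from lists of partners and cell type markers, except the neighbours of Abcb1a, Abcb1b and Abcb4, added after values were seen. The alternatives were single features, values on all 16 arrays, quantile normalization, median centring, tied values set to missing, array weights, pool number as a block, the conflicting label, the compared groups alone and each array left out. The fit without C57BL/6J EPA 1 and AA 1 was chosen after seeing the data. A tied value is one shared by 20 or more features of an array.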

Additional observations from a re-analysis of the deposited data

Results flagged for a closer look

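Abca8a stood at 0.48 on C57BL/6J CO 2, far above the next C57BL/6J array at -0.04. Abcb1b stood at 0.79 on Il10-/- EPA 1, far above the next Il10-/- array at 0.34. These were 2 of 38 groups of 8 arrays examined for an outlying array. The nominal rate of the rule used is about 1 in 20, and its rate in these data was not measured.

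The genotype difference of Abcc3 was 0.20 on EPA, with both Il10-/- arrays above both C57BL/6J arrays, and -0.55 on CO, -0.57 on OA and -0.28 on AA, with both below. On EPA the Il10-/- arrays read 0.96 and 0.97, C57BL/6J EPA 2 read 0.92 and C57BL/6J EPA 1 read 0.62. The last was the lowest Abcc3 array of C57BL/6J mice, and most of the 0.20 rests on it. The genotype difference of Abca1 was 0.33 on OA against -0.18 on CO and -0.27 on EPA. That of Abcg8 was 0.094 on OA against -0.216 on EPA, where C57BL/6J EPA 1 was the highest Abcg8 array. These pairs of diets were not tested one against the other. The test over all 4 diets called 0 members, and its unadjusted p with limma was under 0.05 for Abcc3 but not for Abca1 or Abcg8.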

How the results depend on the processing

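The genotype count averaged over diets was 12 with quantile normalization, median centring, tied values missing, array weights, the relabelled array and pool number as a replicate block. It was 9 with each feature singly, 13 with values on all 16 arrays, 14 without C57BL/6J EPA 1 and AA 1 and 12 to 15 without single arrays. The replicate block left the counts at 10 on CO, 10 on OA, 0 on EPA and 4 on AA. Pool numbers did not pair the arrays (correlations of -0.36 to 0.40, over 0.1 in 12 of 28 pairs of groups).

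The count on CO was 6 with array weights and 2 with only the groups compared, and 7 to 11 without single arrays. On OA it was 13 with values on all 16 arrays or array weights, 6 with Il10-/- OA 1 counted as EPA and 5 to 12 without single arrays. On EPA it was 1 with values on all 16 arrays and 1 with the relabelled array, and 0 to 1 without single arrays. On AA it was 5 with quantile normalization, 2 with each feature singly, 1 with the relabelled array, 0 without C57BL/6J EPA 1 and AA 1, 0 with only the groups compared and 0 to 4 without single arrays. OA against CO in C57BL/6J mice gave 0 to 3, the highest without C57BL/6J CO 1 (Abca14, Abca8a and Abcc8), and any diet difference in C57BL/6J mice gave 0 to 1. Fits with only the groups compared, or without an array, had fewer arrays; for the others the cause was not tested.

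The Abca1 difference turned to 0.0564 with quantile normalization and 0.034 without C57BL/6J EPA 1 and AA 1, and ranged from -0.107 to 0.0167 without single arrays. Abcb11, not called, was 0.217 with quantile normalization, ranged from -0.0261 to 0.0612 without single arrays, and was -0.0332 without C57BL/6J EPA 1 and AA 1, where Abcg5 was 0.0712. With features tested singly, a gene took its median feature by adjusted p (of an even number, the weaker of the middle pair). By this rule Abcb4 (adjusted p = 0.867), Abcc3 (0.219) and Abcd3 (0.0850) were not called, although each has a called feature. The other 9 called genes stayed called in every alternative that gave the averaged difference, Abcb1b through its median feature although another of its features was not called and lay above 0. The lack of spot brightness leaves low signals unjudged.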
